A study of Mus musculus with 9 samples.

Results

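The genes described here are the subunits, activators and assembly factors of the proteasome in RNA‐seq libraries of cells sorted from mouse embryoid bodies with or without NRF1 overexpression (OE). They were taken by symbol: every gene whose symbol is Psma, Psmb, Psmc, Psmd, Psme, Psmf or Psmg with a number, and with or without a final letter, was a member, and the processed pseudogenes of the family were not. The rule found 49 of the 56691 genes in the deposited tables, and 48 of these passed the filter on low counts, which kept 16903 genes for testing. The members were 8 genes of the alpha rings, 7 constitutive genes of the beta rings, 4 alternative beta subunits, 6 ATPases and 11 other subunits of the regulatory particle, 7 assembly chaperones, and 6 genes for activators and an inhibitor.

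The proteasome degrades proteins that carry ubiquitin chains. Its core particle is a barrel in which outer rings of alpha subunits gate the entry and inner rings of beta subunits hold the proteolytic sites, and a regulatory particle binds the chains, removes them and unfolds the substrate with a ring of ATPases. Mammalian cells can exchange the 3 catalytic beta subunits for Psmb8, Psmb9 and Psmb10, which are induced by interferon and form the immunoproteasome. The overexpressed factor was nuclear respiratory factor 1, encoded by Nrf1, which binds a GC‐rich palindrome in many promoters. It is a different protein from NFE2L1, also called NRF1 in the proteasome field, which raises proteasome gene transcription through antioxidant response elements when proteasome activity is blocked.

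BVSC pluripotent stem cells (PSCs), a mouse line that reports Blimp1 by mVenus (BV) and Stella by CFP, were infected with a lentiviral p20 vector in which doxycycline (DOX) switches on an Nrf1 cDNA, or with the empty vector (Ctrl). They were differentiated as embryoid bodies, with 1.5 μg/mL DOX given to all from day 2 on, and at day 5 sorted into BV+ cells, labelled as primordial germ cell‐like cells (PGCLCs), and BV- cells, labelled as somatic. The 9 libraries fell into BV+ NRF1 OE (n = 2), BV+ Ctrl (n = 2), BV- NRF1 OE (n = 3) and BV- Ctrl (n = 2). Per the study's methods replicates were biological, but neither these nor the labels tie single libraries to separate cultures, and p‐values measure the spread between these libraries.

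Total counts lay between 13702162 and 19625460 per library, and levels below are CPM, counts scaled to library size, after TMM scaling. Nrf1 itself had 95.7 and 99.4 CPM in BV+ NRF1 OE, 91.1 and 90.4 CPM in BV+ Ctrl, 119, 122 and 126 CPM in BV- NRF1 OE and 99.1 and 105 CPM in BV- Ctrl. The OE libraries lay above the Ctrl libraries in both populations, but by log2 fold changes of only 0.10 (SE 0.104, edgeR adjusted p = 0.489) and 0.26 (SE 0.0951, edgeR adjusted p = 0.0718). At Ctrl, 0 of 8 markers of primordial germ cells were called higher in BV+ than in BV- cells by edgeR (0 also at an unadjusted p under 0.05), and at NRF1 OE 3 of them were called lower. Col1a1, Col1a2 and Col3a1, collagen genes of mesenchymal cells, were called higher in BV+ cells at both, while Pdgfra and Thy1 of the same list were not called and Dcn did not pass the filter. The summed level of the 6 markers, was 446 to 697 CPM in BV+ NRF1 OE, 130.3 to 136 CPM in BV+ Ctrl and 20.9 to 27.2 CPM in BV- libraries. The populations are therefore named here by their reporter alone. In bulk libraries, fewer cells of a type and less RNA per cell cannot be told apart.

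Promoter windows were available from RefSeq (GRCm38.p6) for 41 of the 49 members and ran from 250 bases before to 50 bases after each start. No window was given for Psma8, Psmb1, Psmb2, Psmb7, Psmc3, Psmd3, Psmd7 and Psmg2. The NRF1 core CGCATGCG, which reads the same on both strands, was in the windows of 2 members (4.88% of 41, against 2.07% of all 27025 genes with a window), Psma2 and Psmg1. The looser form CGCNNGCG, which every core match also meets, was in 10 members (24.4%, against 16.4%). The antioxidant response element TGACNNNGC, searched on both strands, was in 6 members (14.6%, against 14.0%): Psmb5, Psmb6, Psmc6, Psmd9, Psmd12 and Psme4. No member held both kinds of motif. Member windows had a median of 19 CG dinucleotides and a median GC content of 57.3%, against 7 and 52.7% for all windows. Both NRF1 forms contain CG dinucleotides. Whether their shares exceed those of windows of like composition was not tested. A match describes the letters only, since binding was not measured in these libraries.
The stretches below show both kinds of motif, with each match in capitals. The Psma2 stretch is chr13:14612992-14613241 on the plus strand and holds matches that begin 189 and 126 bases before the start. The Psmg1 stretch is chr16:95990911-95990940 on the minus strand, with a match 35 bases after the start. The Psmb5 stretch (chr14:54617996-54618055, minus strand) and the Psmb6 stretch (chr11:70525297-70525356, plus strand) cover the last 60 bases before their starts, with response elements that begin 47 and 9 bases upstream.
Psma2: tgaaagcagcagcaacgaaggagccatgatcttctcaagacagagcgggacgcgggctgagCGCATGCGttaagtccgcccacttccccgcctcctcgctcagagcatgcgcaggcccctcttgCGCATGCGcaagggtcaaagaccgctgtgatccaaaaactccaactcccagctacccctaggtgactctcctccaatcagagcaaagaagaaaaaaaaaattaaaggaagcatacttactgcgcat
Psmg1: actgcgggccggcgCGCATGCGctgtctgg
Psmb5: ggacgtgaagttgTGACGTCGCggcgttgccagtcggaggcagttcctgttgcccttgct
Psmb6: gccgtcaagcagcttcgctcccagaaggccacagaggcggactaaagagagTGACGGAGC

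Proteasome genes were mostly higher in the NRF1 OE libraries of both populations. Members held 0.761% and 0.781% of all counts in BV+ NRF1 OE against 0.677% and 0.695% in BV+ Ctrl, and 0.778%, 0.779% and 0.837% in BV- NRF1 OE against 0.706% and 0.722% in BV- Ctrl, so that the groups did not overlap. In BV+ cells 10 of 48 members were called higher and 0 lower by edgeR's quasi‐likelihood test at a Benjamini-Hochberg adjusted p under 0.05, which is 20.8% of the members against 6.24% of all genes tested (1.78% were called lower). In BV- cells 17 were called higher and 0 lower, or 35.4% against 10.2% of all genes (6.98% were called lower). At an unadjusted p under 0.05 1 member was lower in each population, against 2048 of all 16903 genes in BV+ and 3179 in BV- cells. DESeq2 called 16 higher and 1 lower in BV+ cells and 19 higher and 1 lower in BV- cells. The shares of all genes called, given above, are those of edgeR and do not apply to the DESeq2 counts. The median log2 fold change of the members was 0.24 in BV+ cells, where the median of all genes was 0.04, and 0.32 in BV- cells, where it was 0.01. NRF1 OE and Ctrl libraries differed in their trend over transcript GC content, described below, and with offsets for GC content and length the medians were 0.22 and 0.14. The log2 fold change was above 0 for 41 members in BV+ cells and for 37 in BV- cells (52.8% and 50.7% of all genes). Every NRF1 OE library lay above every Ctrl library for 33 of 48 members in BV+ cells and again for 33 in BV- cells, against 38.1% and 29.4% of all genes. Both comparisons called Psma7, Psmb1, Psmb4, Psmb5, Psmb6, Psmb8, Psmb10, Psme1 and Psme2b. Psme2 was called in BV+ cells alone and Psma2, Psmb3, Psmb7, Psmc3, Psmd3, Psmd4, Psmd13 and Psmg3 in BV- cells alone, and a direct test of the difference in response between the populations passed for 0 members.

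The calls depended on single libraries, while the direction of the group did not. Without BV+ NRF1 OE replicate 1, or without either BV+ Ctrl library, 0 members were called in BV+ cells. The count was 2 without BV- Ctrl replicate 1, 3 without BV- NRF1 OE replicate 3, and 17 and 22 without BV- NRF1 OE replicates 1 and 2. All 9 libraries share an estimate of the spread, so that BV- libraries also enter the BV+ test. In BV- cells 0 members were called without BV- NRF1 OE replicate 3 or without any one of the 4 Ctrl libraries, and 28 were called without BV- NRF1 OE replicate 1. A fit of the 5 BV- libraries alone called 0 members, and a fit of the 4 BV+ libraries alone called 20, 18 higher and 2 lower. In these fits the median log2 fold change of the members stayed between 0.20 and 0.33 in BV+ cells and between 0.24 and 0.36 in BV- cells. The shares of all genes called, given above, belong to the main fit of all 9 libraries and do not apply to the counts in this paragraph. Whether the moves in these counts are particular to the members is therefore not shown.

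**Figure D1:**
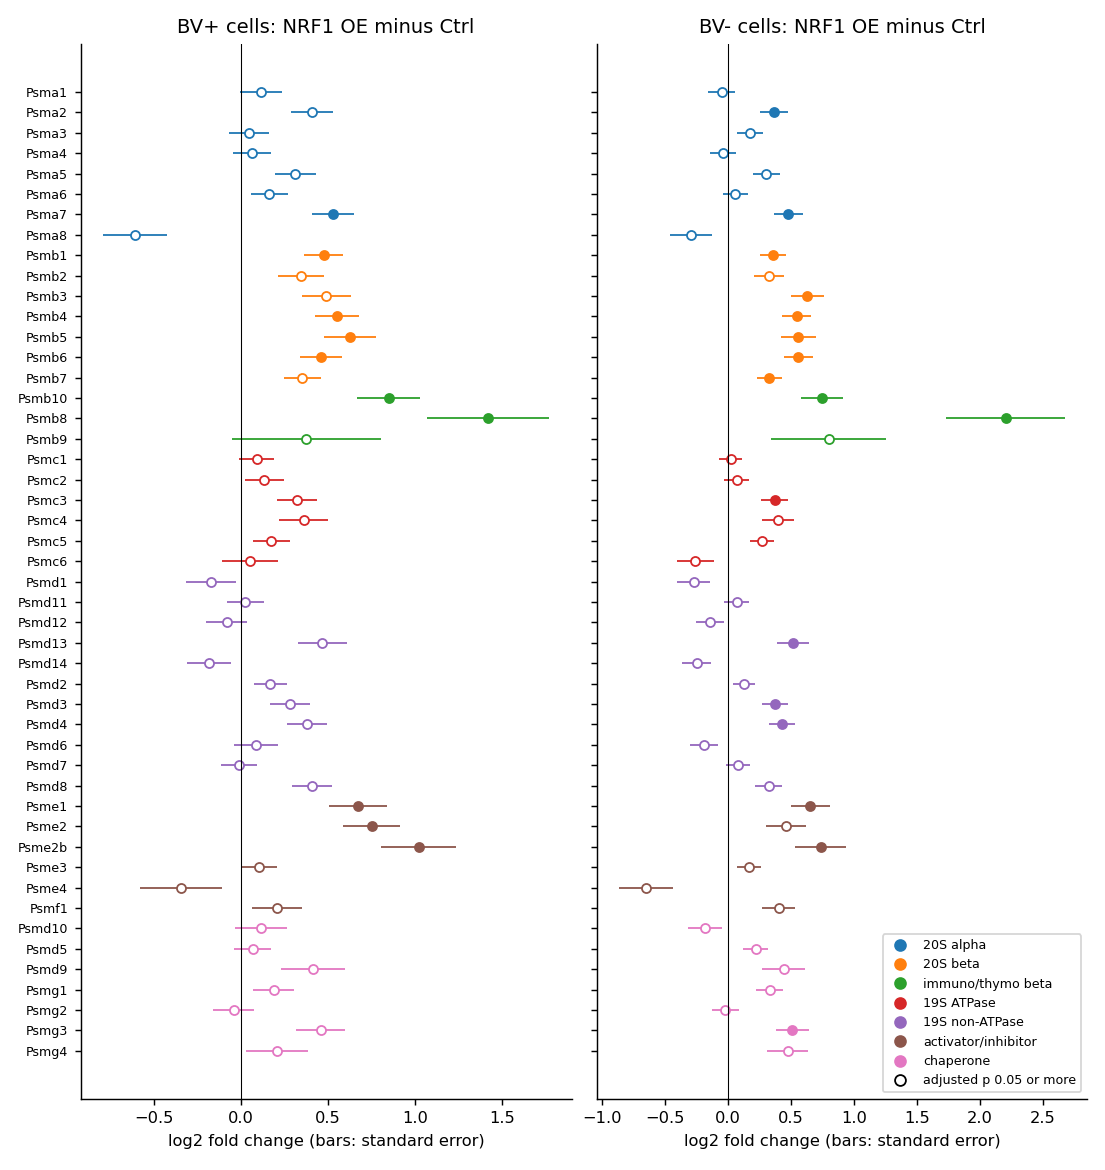
Log2 fold change between NRF1 OE and Ctrl (horizontal axis) of the 48 tested proteasome genes in BV+ cells (left) and BV- cells (right), coloured by role, with bars for the standard error and filled points for an adjusted p under 0.05. Filled points lie right of 0 in both panels, 10 in BV+ and 17 in BV- cells, and the axes of the panels differ in range because Psmb8 reached 2.20 in BV- cells.

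Most constitutive beta subunits rose. In BV+ cells 4 of 7 were called higher and in BV- cells 6 of 7, against 6.24% and 10.2% of all genes. Their median log2 fold changes were 0.47 and 0.54. In both populations every NRF1 OE library lay above every Ctrl library for all 7, against 38.1% and 29.4% of all genes. At an unadjusted p under 0.05 all 7 were higher in both (20.3% of all genes in either population). Their summed level was 1360 to 1585 CPM in BV+ NRF1 OE and 1046 to 1077 CPM in BV+ Ctrl, and 1519 to 1793 CPM in BV- NRF1 OE and 1131 to 1204 CPM in BV- Ctrl.

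Psmb5 carries the chymotrypsin‐like site and has an antioxidant response element in the stretch printed above. It had 97.4 and 76.2 CPM in BV+ NRF1 OE and 59.1 and 53.4 CPM in BV+ Ctrl, a log2 fold change of 0.63 (SE 0.15, edgeR adjusted p = 0.0352). The BV- libraries had 76.1, 93.6 and 91.3 CPM at NRF1 OE and 56.8 and 61.6 CPM at Ctrl, a log2 fold change of 0.56 (SE 0.139, edgeR adjusted p = 0.0341). In both populations the lowest NRF1 OE library was above the highest Ctrl library. Psmb6, which carries the caspase‐like site and also has an element in its printed stretch, had 273 and 229 CPM against 190.4 and 175 CPM in BV+ cells, a log2 fold change of 0.46 (SE 0.123, edgeR adjusted p = 0.0456). Its BV- values were 286, 332 and 299 CPM at NRF1 OE and 199 and 216 CPM at Ctrl, a log2 fold change of 0.56 (SE 0.114, edgeR adjusted p = 0.0317). Groups were apart in both populations. Psmb7, with the trypsin‐like site, had 206, 214 and 192 CPM in BV- NRF1 OE and 158 and 167 CPM in BV- Ctrl, a log2 fold change of 0.33 (SE 0.0979, edgeR adjusted p = 0.0449). In BV+ cells its 201 and 184 CPM at NRF1 OE and 149.5 and 153 CPM at Ctrl did not pass the threshold (log2 fold change 0.35, SE 0.106, edgeR adjusted p = 0.0619), although the groups did not overlap. Exons of Psmb7 overlap those of Nek6 on the other strand.

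The other beta subunits have no proteolytic site and build the ring. Psmb4 was the most abundant of them per length and had 401 and 345 CPM in BV+ NRF1 OE and 258 and 252 CPM in BV+ Ctrl, a log2 fold change of 0.55 (SE 0.126, edgeR adjusted p = 0.0323). Its BV- values were 351, 444 and 394 CPM at NRF1 OE and 265 and 278 CPM at Ctrl, a log2 fold change of 0.54 (SE 0.117, edgeR adjusted p = 0.0317). Every OE library lay above the highest Ctrl library of its population. Psmb1 had 248 and 214 CPM against 172 and 161 CPM in BV+ cells, a log2 fold change of 0.47 (SE 0.114, edgeR adjusted p = 0.0347). The BV- libraries had 246, 256 and 227 CPM at NRF1 OE and 185 and 194 CPM at Ctrl, a log2 fold change of 0.36 (SE 0.104, edgeR adjusted p = 0.0426). The groups were apart again in both populations. Psmb3 had the largest BV- log2 fold change of the 7 constitutive beta subunits, with 234, 301 and 251 CPM at NRF1 OE and 163 and 176 CPM at Ctrl and a log2 fold change of 0.63 (SE 0.129, edgeR adjusted p = 0.0317). Its 229 and 188 CPM and 147 and 150.3 CPM in BV+ cells gave 0.49 (SE 0.139, edgeR adjusted p = 0.0522) and just missed the threshold. Psmb2 was called in neither, with log2 fold changes of 0.34 (SE 0.132, edgeR adjusted p = 0.107) in BV+ and 0.32 (SE 0.121, edgeR adjusted p = 0.0757) in BV- cells. With offsets for the trends of single libraries over transcript GC content and length, described below, 4 beta subunits were called in BV+ cells (Psmb1, Psmb3, Psmb4 and Psmb7) and 5 in BV- cells (the same 4 and Psmb6), with medians of 0.33 and 0.30. Psmb5 lost its call in both populations, at 0.23 and 0.10. Shares of all genes called, given above, belong to the fit without offsets. Whether the beta subunit counts exceed the share of all genes called with offsets is not shown.

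**Figure D2:**
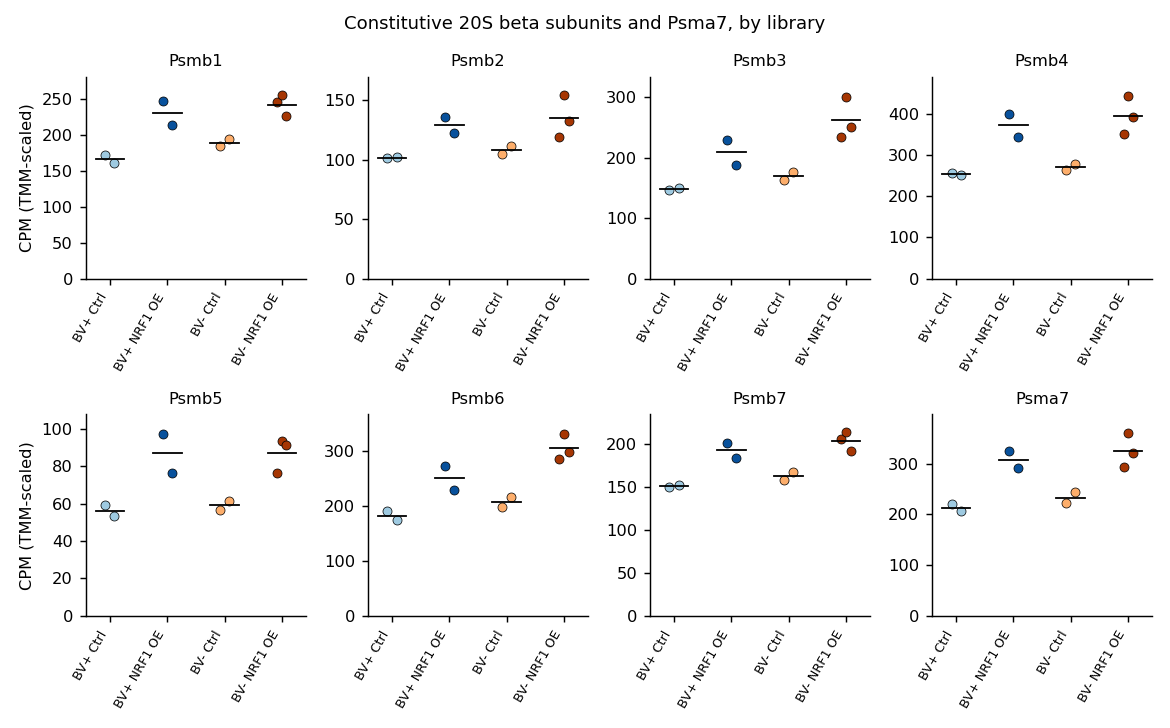
CPM after TMM scaling (vertical axes, from 0) of the 7 constitutive beta subunits and of the alpha subunit Psma7 in each of the 9 libraries (points), by group, with lines at the group means. For each of the 8 genes all NRF1 OE points lie above all Ctrl points of the same population.

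In the alpha rings 1 of 8 subunits was called higher in BV+ cells (12.5%, against 6.24% of all genes) and 2 in BV- cells (against 10.2% of all genes), and the medians were 0.14 and 0.11. Psma7 rose in both populations: it had 325 and 291 CPM in BV+ NRF1 OE and 220.5 and 207 CPM in BV+ Ctrl, a log2 fold change of 0.53 (SE 0.122, edgeR adjusted p = 0.0326). In BV- cells the values were 294, 359.9 and 321 CPM at NRF1 OE and 222 and 244 CPM at Ctrl, a log2 fold change of 0.48 (SE 0.113, edgeR adjusted p = 0.0317). All NRF1 OE libraries were above all Ctrl libraries, but with the GC and length offsets the log2 fold changes were 0.16 and 0.05 and both calls were lost. Psma2, whose printed promoter holds 2 NRF1 cores, had 203, 205 and 187 CPM in BV- NRF1 OE and 148 and 159.7 CPM in BV- Ctrl, a log2 fold change of 0.36 (SE 0.111, edgeR adjusted p = 0.0454). In BV+ cells it had 214 and 177 CPM at NRF1 OE and 153 and 142 CPM at Ctrl (log2 fold change 0.41, SE 0.12, edgeR adjusted p = 0.058). Groups did not overlap in either population, and the offsets moved Psma2 the other way from Psma7, to 0.69 and 0.84, both called. Psma5 had log2 fold changes of 0.31 and 0.30, and Psma1, Psma3, Psma4 and Psma6 lay between -0.05 and 0.17, none of the 5 called without the offsets, with which Psma3 was called in BV- cells (0.60).

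Psma8, the alpha subunit that replaces Psma7 in the testis, had the lowest log2 fold changes of the alpha subunits. It had 16.6 and 22.6 CPM in BV+ NRF1 OE and 28.9 and 30.8 CPM in BV+ Ctrl, a log2 fold change of -0.61 (SE 0.185, edgeR adjusted p = 0.0621) that did not pass the threshold. The BV- libraries had 27.7, 20.7 and 27 CPM at NRF1 OE and 33.1 and 28.6 CPM at Ctrl (log2 fold change -0.29, SE 0.167, edgeR adjusted p = 0.211). OE libraries lay below Ctrl libraries in both populations, so that in BV+ cells Psma7 and Psma8 had fitted changes of opposite sign. DESeq2 called Psma8 lower in BV+ cells. With the GC and length offsets Psma8 had -0.43 in BV+ and -0.01 in BV- cells, neither called.

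Psmb8 and Psmb10 of the immunoproteasome rose in both populations, and Psmb8 had the largest log2 fold change of all members in each. Psmb8, which takes the place of Psmb5, was counted 72 and 65 times in BV+ NRF1 OE and 24 and 22 times in BV+ Ctrl (3.71 and 3.54 CPM against 1.57 and 1.15 CPM). In BV- cells it was counted 15, 27 and 21 times at NRF1 OE and 4 and 6 times at Ctrl (0.903, 1.99 and 1.24 CPM against 0.252 and 0.32 CPM). The groups did not overlap, and BV- cells at NRF1 OE reached the range of BV+ cells at Ctrl. The log2 fold change was 1.42 (SE 0.352, edgeR adjusted p = 0.0386) in BV+ cells, or 2.67‐fold. In BV- cells it was 2.20 (SE 0.472, edgeR adjusted p = 0.0317), or 4.61‐fold. Psmb8 stayed low for a proteasome subunit, and an annotated antisense gene, Gm20496, overlaps its exons, so reads of the 2 genes cannot be told apart if strand was not used.

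Psmb10, which takes the place of Psmb7, had 26.3 and 21.8 CPM in BV+ NRF1 OE and 14 and 12.8 CPM in BV+ Ctrl, a log2 fold change of 0.85 (SE 0.18, edgeR adjusted p = 0.0252). In BV- cells it had 17.3, 24.6 and 21 CPM at NRF1 OE and 11.8 and 13.1 CPM at Ctrl, a log2 fold change of 0.75 (SE 0.169, edgeR adjusted p = 0.0317). All OE libraries lay above all Ctrl libraries. With the GC and length offsets the changes were 0.48 and 0.31, and the BV- call was lost. Psmb9, which takes the place of Psmb6, was counted 31 and 23 times in BV+ NRF1 OE, 14 and 24 in BV+ Ctrl, 9, 18 and 20 in BV- NRF1 OE and 8 and 12 in BV- Ctrl. These groups overlapped, and the log2 fold changes of 0.38 (SE 0.425, edgeR adjusted p = 0.549) and 0.80 (SE 0.458, edgeR adjusted p = 0.215) did not pass the threshold. Exons of Psmb9 overlap those of Tap1 on the other strand. Psmb11, the subunit of the thymoproteasome, was counted once in each BV+ NRF1 OE library and 0 times in the other 7 libraries, where 0 counts allow a level of up to 0.157 to 0.221 CPM, and was not tested. Counts of 0 and these limits cover counting error only.

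Genes that act with the immunoproteasome in antigen presentation, and other interferon targets, were looked at beside it. Of 16 such genes 13 were tested, of which 4 were called higher in BV+ cells (Tap1, Tap2, Tapbp and B2m), or 30.8% against 6.24% of all genes. In BV- cells 6 were called higher (Irf1, Tap2, Tapbp, H2-K1, Ifitm3 and Bst2), or 46.2% against 10.2%. The 13 tested genes had a median transcript GC content of 52.8%, against 49.8% for all genes tested. Values with the GC and length offsets are not given here for this list. Tap2, a subunit of the peptide transporter, had 3.61 and 3.43 CPM in BV+ NRF1 OE, 0.983 and 1.21 CPM in BV+ Ctrl, 1.69, 2.87 and 1.07 CPM in BV- NRF1 OE and 0.315 and 0.641 CPM in BV- Ctrl. Its log2 fold changes were 1.67 (SE 0.422, edgeR adjusted p = 0.0397) and 1.90 (SE 0.483, edgeR adjusted p = 0.0349). Ifit1, Ifit3 and Isg15, classical interferon targets, did not pass the filter on low counts. Blood and immune markers were low: the sum of Ptprc, Cd68, Tyrobp, Hba-a1 and Gata1 was 2.78 to 4.98 CPM over the 9 libraries, of which Cd68 alone passed the filter. Psmb8 (0.252 to 3.71 CPM) and Tap2 were themselves as low, and the part of blood or immune cells in these changes was not tested. Of the 5 tested mesenchymal markers, the 3 collagen genes were called higher and Pdgfra lower in BV+ NRF1 OE than in BV+ Ctrl, and the part of such cells in these changes was not tested.

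**Figure D3:**
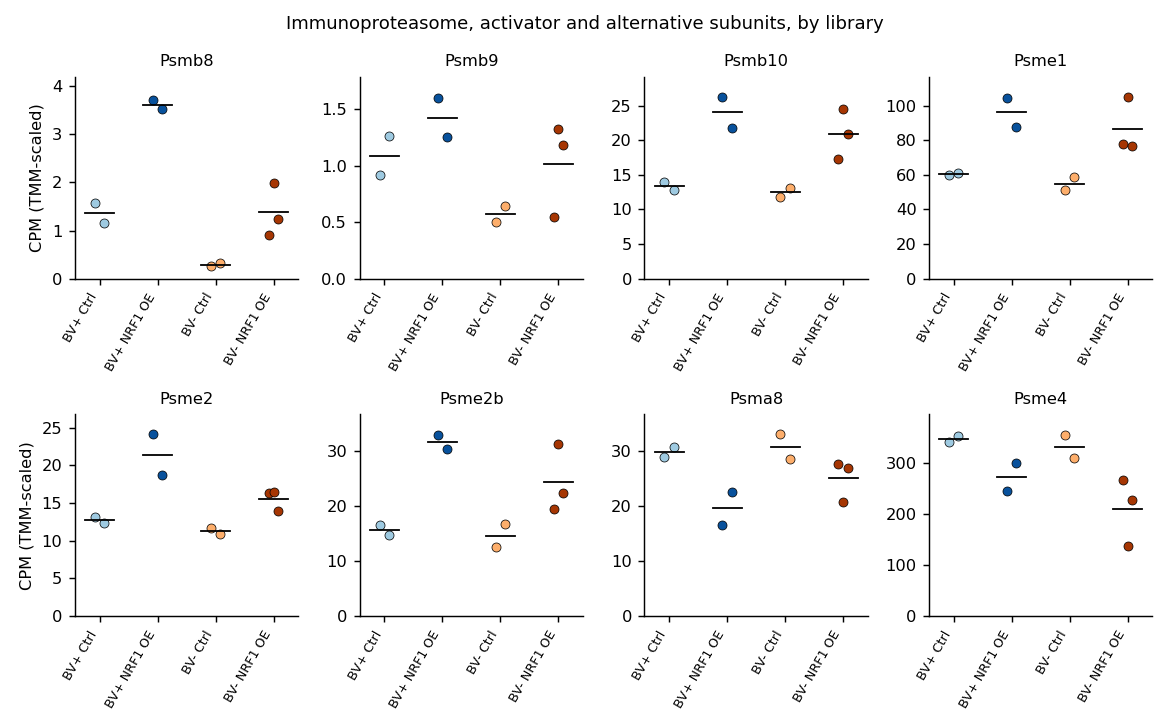
CPM after TMM scaling (vertical axes, from 0) of the immunoproteasome subunits Psmb8, Psmb9 and Psmb10, the activators Psme1, Psme2, Psme2b and Psme4, and the testis alpha subunit Psma8 in each of the 9 libraries (points), with lines at the group means. NRF1 OE points lie above Ctrl points for Psmb8, Psmb10, Psme1, Psme2 and Psme2b in both populations and below them for Psma8 and Psme4, while the Psmb9 groups overlap.

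Activators of the core particle had changes of both signs. Psme1 and Psme2 encode the subunits of PA28 alpha/beta, an interferon‐inducible cap. Psme1 had 104 and 87.7 CPM in BV+ NRF1 OE and 59.8 and 60.9 CPM in BV+ Ctrl, a log2 fold change of 0.67 (SE 0.166, edgeR adjusted p = 0.038). In BV- cells it had 77.5, 105 and 76.7 CPM at NRF1 OE and 51.1 and 58.6 CPM at Ctrl, a log2 fold change of 0.65 (SE 0.154, edgeR adjusted p = 0.0317). The groups did not overlap, and with the offsets the values were 0.34 and 0.27, the second no longer called. Its exons overlap those of Emc9 on the other strand. Psme2 had 24.1 and 18.7 CPM in BV+ NRF1 OE and 13.2 and 12.3 CPM in BV+ Ctrl, a log2 fold change of 0.75 (SE 0.165, edgeR adjusted p = 0.0286), and in BV- cells 16.3, 16.4 and 13.9 CPM and 11.7 and 10.9 CPM (log2 fold change 0.46, SE 0.155, edgeR adjusted p = 0.0582). Psme2b, a near copy of Psme2, had 33 and 30.5 CPM against 16.5 and 14.8 CPM in BV+ cells, a log2 fold change of 1.02 (SE 0.215, edgeR adjusted p = 0.025). Its BV- values were 19.5, 31.4 and 22.3 CPM at NRF1 OE and 12.5 and 16.7 CPM at Ctrl, a log2 fold change of 0.73 (SE 0.202, edgeR adjusted p = 0.0384). Exons of Psme2b overlap those of 9930111J21Rik1 on the same strand. The longest transcripts of Psme2 and Psme2b were 85.2% identical, and 60.2% of the 75‐base stretches of Psme2b also occurred in Psme2, so counting could divide reads between them. With both counts summed, an alternative added after the data were seen, the log2 fold change was 0.90 (SE 0.165) in BV+ cells and 0.62 (SE 0.154) in BV- cells, both called.

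Psme4, the activator PA200, which is known from testis and DNA repair, had values below Ctrl. It had 246 and 301 CPM in BV+ NRF1 OE and 341 and 354 CPM in BV+ Ctrl (log2 fold change -0.35, SE 0.236, edgeR adjusted p = 0.31). The BV- libraries had 268, 137 and 228 CPM at NRF1 OE and 356 and 309.7 CPM at Ctrl (log2 fold change -0.66, SE 0.213, edgeR adjusted p = 0.0527). OE libraries lay below Ctrl libraries in both populations, with BV- NRF1 OE replicate 2 lowest at 137 CPM, and neither change passed edgeR's threshold, while DESeq2 called the BV- change. With the offsets the log2 fold changes were -0.03 and -0.18. Psme3, the nuclear activator PA28 gamma, had 0.10 and 0.17, and Psmf1, the inhibitor PI31, had 0.20 and 0.40. Neither was called by edgeR, while Psmf1 was called higher in BV- cells by DESeq2 and with the offsets (0.48).

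In the regulatory particle edgeR made calls in BV- cells. Of the 6 ATPases, 0 were called in BV+ cells by edgeR and by DESeq2, where 2 were higher at an unadjusted p under 0.05 (20.3% of all genes). In BV- cells edgeR called 1, Psmc3 (16.7%, against 10.2% of all genes), and DESeq2 also called Psmc4. Psmc3 had 278, 337 and 301 CPM in BV- NRF1 OE and 235 and 238 CPM in BV- Ctrl, a log2 fold change of 0.37 (SE 0.106, edgeR adjusted p = 0.0415). The groups did not overlap, but with the offsets the change was 0.01, and the exons of Psmc3 overlap those of Slc39a13 on the other strand. In BV+ cells Psmc3 had 275 and 257 CPM at NRF1 OE and 223 and 203 CPM at Ctrl, groups that were also apart. There the log2 fold change was 0.32 (SE 0.116, edgeR adjusted p = 0.0929), and 0.02 with the offsets. The other 5 ATPases lay between 0.05 and 0.36 in BV+ cells and between -0.26 and 0.40 in BV- cells. With the offsets Psmc6 was called in BV+ cells (0.31) and Psmc2 in BV- cells (0.52).

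Of the 11 other subunits, edgeR called 0 in BV+ cells and 3 in BV- cells (27.3%, against 10.2% of all genes). In BV+ cells 4 were higher at an unadjusted p under 0.05 (20.3% of all genes), and DESeq2 called 3 (Psmd4, Psmd8 and Psmd13). Psmd4, a ubiquitin receptor, had 270.3, 325 and 282 CPM in BV- NRF1 OE and 215 and 221 CPM in BV- Ctrl, a log2 fold change of 0.43 (SE 0.104, edgeR adjusted p = 0.0334). Psmd13, a subunit of the lid, had 168, 218 and 193 CPM at NRF1 OE and 132 and 139 CPM at Ctrl, a log2 fold change of 0.51 (SE 0.128, edgeR adjusted p = 0.0339). Psmd3, also of the lid, had 298, 365 and 342 CPM at NRF1 OE and 253 and 264 CPM at Ctrl, a log2 fold change of 0.37 (SE 0.106, edgeR adjusted p = 0.0408). For all 3 the OE libraries were above the Ctrl libraries, and with the offsets none was called (0.17, 0.22 and 0.07). In BV+ cells Psmd4 had 285 and 267 CPM at NRF1 OE and 215 and 210 CPM at Ctrl (log2 fold change 0.38, SE 0.113, edgeR adjusted p = 0.0599). Psmd13 had 181 and 154 CPM against 127 and 116 CPM there (0.47, SE 0.139, edgeR adjusted p = 0.0591). Psmd3 had 301.5 and 282 CPM against 244 and 236 CPM (0.28, SE 0.115, edgeR adjusted p = 0.122). These BV+ groups did not overlap either. Of the 11 subunits the offsets called Psmd11 alone, in BV- cells (0.53). Exons of Psmd13 overlap those of Sirt3 on the other strand, and exons of Psmd3 those of Gm12356. Psmd14, the deubiquitinase of the lid, had 108, 85.3 and 88.6 CPM in BV- NRF1 OE and 109.5 and 114 CPM in BV- Ctrl, and 94.9 and 104 CPM in BV+ NRF1 OE and 113 and 113 CPM in BV+ Ctrl. Its log2 fold changes were -0.25 (SE 0.117, edgeR adjusted p = 0.135) in BV- and -0.18 (SE 0.129, edgeR adjusted p = 0.325) in BV+ cells. Psmd1, the large scaffold of the base, had 268 and 333 CPM in BV+ NRF1 OE, 347 and 331 CPM in BV+ Ctrl, 308, 237 and 304 CPM in BV- NRF1 OE and 342 and 343 CPM in BV- Ctrl. Its log2 fold changes of -0.17 (SE 0.144, edgeR adjusted p = 0.404) and -0.28 (SE 0.131, edgeR adjusted p = 0.14) were below 0 without passing the threshold.

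Assembly chaperones are bound to the particle only while it is built. Of the 7, edgeR and DESeq2 called 0 in BV+ cells, where 2 were higher at an unadjusted p under 0.05 (20.3% of all genes). Both called 1, Psmg3, in BV- cells (14.3%, against 10.2% of all genes by edgeR). Psmg3, which works with Psmg4 in setting up the alpha ring, had 25.5, 32 and 28.1 CPM in BV- NRF1 OE and 19.9 and 20.3 CPM in BV- Ctrl, a log2 fold change of 0.51 (SE 0.131, edgeR adjusted p = 0.0353). The groups were apart, as they were in BV+ cells, with 24.8 and 23.2 CPM at NRF1 OE and 17.4 and 17.5 CPM at Ctrl (log2 fold change 0.46, SE 0.142, edgeR adjusted p = 0.0662). With the GC and length offsets Psmg3 was called in BV+ (0.38) and BV- cells (0.40), and the chaperone Psmd5 in BV- cells (0.57). Psmg1, whose printed stretch holds an NRF1 core, had log2 fold changes of 0.19 (SE 0.118, edgeR adjusted p = 0.275) and 0.33 (SE 0.108, edgeR adjusted p = 0.0543). With the offsets Psmg1 had -0.007 in BV+ and 0.07 in BV- cells, neither called. Exons of Psmg3 overlap those of Gm26938 on the same strand. Psmg2, the partner of Psmg1, lay at -0.04 and -0.02.

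Genes that act with the proteasome but lie outside the symbol rule were counted separately. Of 30 such genes, among them the subunits Adrm1 and Sem1, the maturation factor Pomp, ubiquitin receptors, deubiquitinases and ubiquitin genes, 1 was called higher in BV+ cells (3.33%, against 6.24% of all genes). In BV- cells 4 were called higher, among them Adrm1, Uba1 and Ubb (13.3%, against 10.2%), and 2 lower, Uchl5 and Uba6 (against 6.98% of all genes). The medians were 0.12 and 0.03. Nfe2l1, the factor for proteasome gene induction named above, had 266 ± 11.2 CPM (SD, n = 2) in BV+ NRF1 OE, 242 ± 11.5 CPM (n = 2) in BV+ Ctrl, 253 ± 11.8 CPM (n = 3) in BV- NRF1 OE and 244 ± 7.73 CPM (n = 2) in BV- Ctrl. Its RNA was not called in either comparison (log2 fold change 0.14, SE 0.102, edgeR adjusted p = 0.36 in BV+ cells, and 0.05, SE 0.0935, edgeR adjusted p = 0.71 in BV- cells). Pomp had log2 fold changes of 0.36 and 0.21, not called.

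Few proteasome genes were called between BV+ and BV- cells. At Ctrl 0 of 48 members were called by edgeR in either direction, against 1.12% of all genes, 1 had an unadjusted p under 0.05 (7.77% of all genes), and DESeq2 called 1. The median log2 difference between BV+ and BV- cells was -0.07 (all genes -0.01), and 11 of 48 differences were above 0 (48.0% of all genes). At NRF1 OE 1 member was called higher in BV+ cells (2.08%, against 9.90% of all genes) and 0 lower (3.85%), with a median of -0.07. That gene was Psmb8, at 1.41 (SE 0.316, edgeR adjusted p = 0.0122), and at Ctrl its difference was 2.20 (SE 0.499, edgeR adjusted p = 0.0718). The BV+ libraries of Psmb8 were above the BV- libraries with the same vector in both cases, and without BV+ NRF1 OE replicate 1 it was no longer called at NRF1 OE. The 3 collagen genes were called higher in the same BV+ libraries, Pdgfra and Thy1 were not, and the part of mesenchymal cells in this difference was not tested. The constitutive beta subunits all lay slightly lower in BV+ cells, between -0.19 and -0.07 at Ctrl, none called. With the GC and length offsets, 6 members were called at NRF1 OE, 4 higher and 2 lower in BV+ cells, and the shares of all genes given above do not apply to that fit.

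The responses to NRF1 OE in BV+ and BV- cells share no libraries, and their difference was tested as an interaction. It was called for 0 of 48 members by edgeR and by DESeq2, 0 members had an unadjusted p under 0.05, and 0 of all genes tested were called (932 of them, 5.51%, had an unadjusted p under 0.05). The largest difference was that of Psmb8, -0.79 (SE 0.605, edgeR adjusted p = 0.983), with the BV- response the larger. Psmb5 differed by 0.07 (SE 0.203, edgeR adjusted p = 0.996) and Psmb4 by 0.01 (SE 0.17, edgeR adjusted p = 0.998). With standard errors of this size, small differences between populations in the constitutive subunits were not detectable with these libraries.

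The size of the change followed base composition among the members as among all genes. Each library's deviation from the mean of the 9 libraries was compared with transcript GC content over 11335 genes. Spearman's rho was -0.632 to -0.553 in the 4 Ctrl libraries, 0.349 and -0.0218 in BV+ NRF1 OE, and 0.0755, 0.713 and 0.628 in BV- NRF1 OE. Ctrl and OE libraries thus stood apart in this measure, and OE replicates differed among themselves. Over the 48 members, the log2 fold change and GC content of the longest transcript had a Spearman's rho of 0.656 in BV+ cells (0.475 over 16662 genes) and 0.722 in BV- cells (0.617). Genes in a library share its depth and preparation, so these correlations are descriptions. Members had a median GC content of 49.7%, and all genes tested 49.8%. Medians by role were 44.5% for the alpha ring, 51.0% for the constitutive beta ring and 54.1% for the 3 tested immunoproteasome genes. With offsets that removed from each library its spline over transcript GC and length, 12 members were called higher in BV+ cells and 14 in BV- cells, 0 were lower, and the medians were 0.22 and 0.14. The shares of all genes called, given above, belong to the fit without offsets. Whether these counts exceed the share of all genes called with offsets is therefore not shown. The origin of the trend was not tested.

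**Figure D4:**
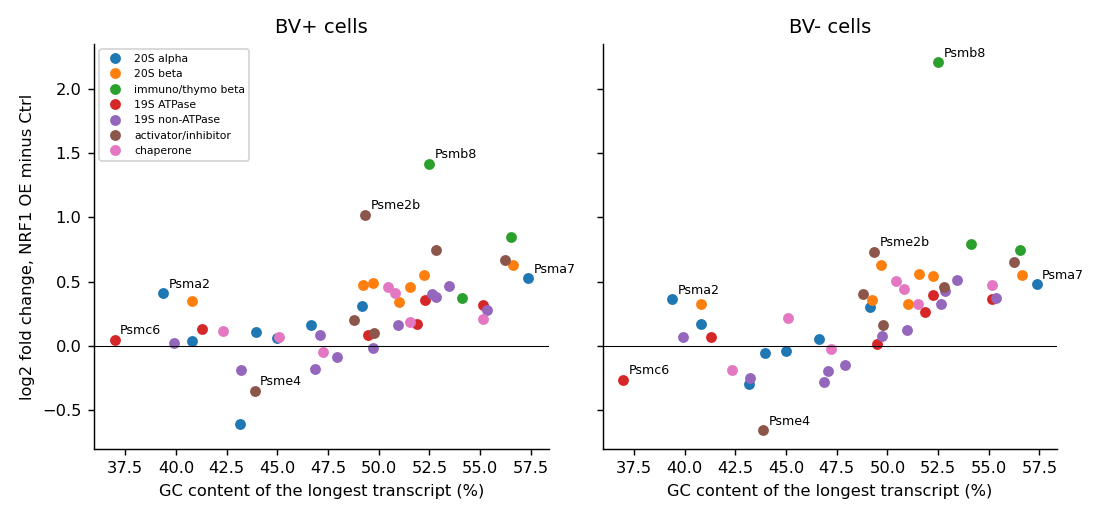
Log2 fold change between NRF1 OE and Ctrl (vertical axis) against the GC content of the longest transcript in percent (horizontal axis) for the 48 tested members in BV+ cells (left) and BV- cells (right), coloured by role. Points rise from left to right in both panels (Spearman's rho 0.656 and 0.722), with Psmb8 above and Psme4 below the bulk.

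Levels between genes can be compared per length, for which the authors' FPKM were used. Mean FPKM over the 9 libraries ran from 169.5 for Psmb4, 162 for Psmc5 and 156 for Psmd7 down to 0.482 for Psmb8, 0.28 for Psmb9 and 0.00222 for Psmb11. Psmb4 had 203 and 178 FPKM in BV+ NRF1 OE, 135 and 132 FPKM in BV+ Ctrl, 176, 225 and 195 FPKM in BV- NRF1 OE and 137 and 143 FPKM in BV- Ctrl. Psmc5 had 159.9 and 153 FPKM, 146 and 139 FPKM, 173, 199 and 175 FPKM and 152 and 159 FPKM in the same order of groups. The ranges of these neighbours in the order overlapped across libraries, so their order is not fixed. Each constitutive catalytic subunit was above its alternative: Psmb5 had a mean of 81.9 FPKM and Psmb8 0.482 FPKM, Psmb6 had 129.9 FPKM and Psmb9 0.28 FPKM, and Psmb7 had 52.6 FPKM and Psmb10 10.6 FPKM. Psma7 (89.5 FPKM) was likewise above Psma8 (10.5 FPKM). The order depends on the length used. FPKM implied a counted length of 4595 bases for Psmb1, whose principal transcript has 1758 bases in the annotation used here. Per kilobase of principal transcript, Psmb6 (306 CPM per kilobase), Psma7 (302) and Psmb4 (281) came first.

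**Figure D5:**
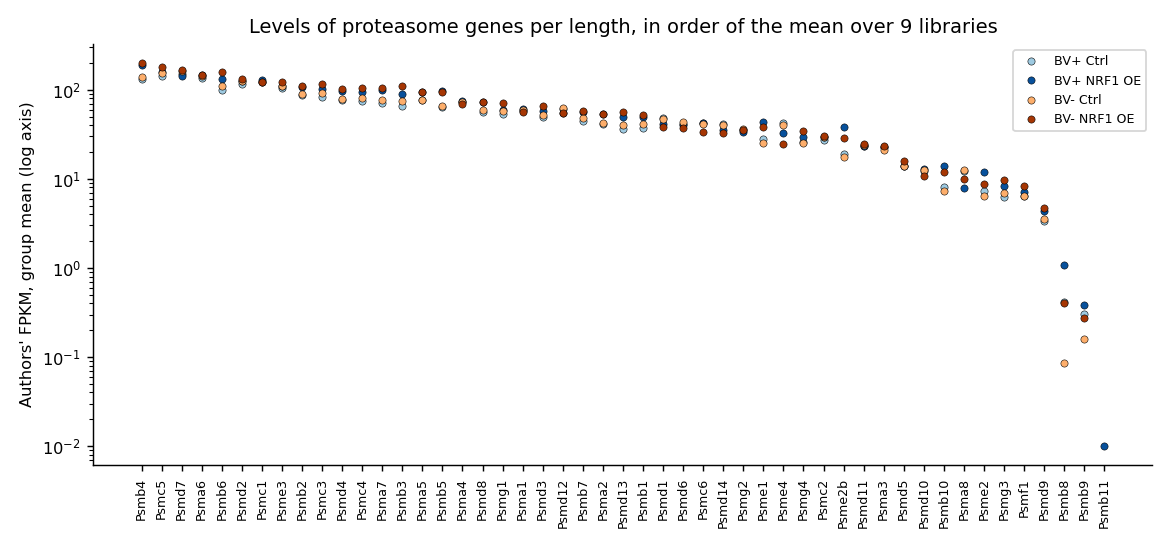
Group means of the authors' FPKM (vertical axis, log scale) for the 49 members, in order of the mean over 9 libraries. Levels run over several orders of magnitude, from Psmb4 to Psmb11, which is drawn for BV+ NRF1 OE alone because its other group means are 0.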

How the data were processed

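Poly(A) RNA of 9 sorted libraries was sequenced as paired ends. The authors trimmed reads, mapped them with HISAT2 2.0.1 and counted reads per gene with HTSeq 0.6.1 on GRCm39 (Ensembl). Their deposited files hold raw counts, used for every test, and FPKM, used here for levels between genes only. Whether counting used strand is not given in the sources used here.

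Counts of 9 libraries in 4 groups were fitted together with edgeR 4.0.16 (R 4.3.3) by the quasi‐likelihood F test, with TMM scaling and the default low‐count filter of filterByExpr. P‐values were two‐sided and were adjusted by Benjamini-Hochberg over 16903 genes, with a threshold of 0.05. CPM are TMM‐scaled. Depth and replicate number limit the precision, and all replicate pairs differed by more than sampling noise. Alternatives included DESeq2 1.42.0, other filters, a replicate block, leaving out each library, and spline offsets (5 degrees of freedom) for transcript GC content and length of 16662 genes with values. Exon overlaps and transcripts came from the GENCODE annotation of GRCm38, matched by gene ID, and promoters from RefSeq. Scripts were tested on simulated data. Figures were drawn with matplotlib 3.10.9 in Python 3.11.15.

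Members and gene lists were chosen with earlier results of these data known. Values in every library were given for members called in any comparison, those with the 3 highest and 3 lowest log2 fold changes in each pairwise comparison, restricted subunits, and members under the filter. Values of some genes of the other lists are not reported here.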

Additional observations from a re-analysis of the deposited data

How the results depend on the processing

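Main counts of members called were 10 for NRF1 OE in BV+ cells, 17 for NRF1 OE in BV- cells, 0 for BV+ against BV- cells at Ctrl, 1 for the same at NRF1 OE, and 0 for the interaction. The shares of all genes called at an adjusted p under 0.05, given above, belong to these main counts and not to the alternatives that follow. Whether moves in the alternative counts are particular to the members is not shown. In BV+ cells DESeq2 called 17, a mean of at least 10 counts 17, and a fit of only the groups compared 20. In BV- cells that last fit called 0, and a rule of unadjusted p (under 0.05) and size (log2 fold change beyond 0.58 either way) called 6. By this rule 5 of 48 members were higher and 1 lower in BV- cells, against 969 and 1734 of all 16903 genes tested. In BV+ cells 6 were higher and 1 lower, against 1653 and 1217 of all genes. At Ctrl this rule, DESeq2, no filter, only the groups compared and the GC and length offsets each called 1. At NRF1 OE no filter and the mean of 10 counts each called 2, and the offsets 6. Libraries with the same replicate number had correlations of their deviations from the group means between -0.295 and 0.243. In groups of 2 libraries these deviations mirror each other, so this check cannot exclude that libraries shared a culture. With the replicate block 0 members were called for NRF1 OE in BV+ cells, 0 in BV- cells and 0 between the populations at NRF1 OE, and with the replicate block and offsets 4, 6 and 2. Leaving out single libraries gave 0 to 22 in BV+ cells, 0 to 28 in BV- cells, 0 to 1 at Ctrl, 0 to 4 at NRF1 OE and 0 for the interaction. Of the values of single genes over all alternatives, 481 kept their direction and call status, 242 lost a call, 19 gained one and 0 changed direction. This tally covers named members alone, picked in part because they were called or extreme in these data. Members outside it did change direction. With the offsets Psmg1 in BV+ cells went from 0.19 to -0.007, and Psmc5 in BV+ cells from 0.17 to -0.02. Apart from fewer libraries, the cause of lost and gained calls was not tested.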

Other observations

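The processed pseudogenes of the family were outside the symbol rule. Psma5-ps was counted 329 and 245 times in BV+ NRF1 OE, 154 and 222 times in BV+ Ctrl, 234, 210 and 225 times in BV- NRF1 OE, and 197 and 262 times in BV- Ctrl. Of its 75‐base stretches, 31.8% also occurred in Psma5, so reads of the 2 cannot be fully separated. The other pseudogenes, Psmb5-ps, Psmb6-ps, Psmb6-ps2 and Psmb7-ps2, had at most 3 counts in any library.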
